A study of Mus musculus with 12 samples.

Results

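Wild-type mice that received estradiol were set against mice that had neither the hormone nor estrogen receptor alpha. The first group, WT E2 (n = 3), carried a pellet with 0.01 mg of 17β-estradiol (E2), and the second, KO Plb (n = 4), was the estrogen receptor alpha knockout (ERalphaKO) with a placebo pellet. These 7 of the 12 libraries of the study were chosen by their genotype and treatment labels, and all 23284 genes of the counts table entered, of which 14832 had enough counts to be tested. The mice were C57BL/6 females that lost their ovaries at 16 weeks and were sampled at 17 weeks, when the pellets had been in place for 1 week. A pellet releases over 60 days, and 0.01 mg is what it holds in full. RNA was taken without cell sorting from mandibular condylar fibrocartilage, which lines the head of the lower jaw at its joint. The other 2 groups, WT with placebo (WT Plb, n = 2) and ERalphaKO with E2 (KO E2, n = 3), are given beside the results to place each gene. Since genotype and treatment differ together between WT E2 and KO Plb, a difference between them cannot be assigned to either one. The labels do not say which part of the receptor gene was removed, or that each library came from an animal of its own, so the spread between libraries may be technical.

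Estradiol enters cells and binds estrogen receptor alpha, a nuclear receptor that then acts on DNA at estrogen response elements or through other factors such as AP-1, and changes transcription of its targets. Estrogen receptor beta and a membrane receptor bind the same hormone. The condylar fibrocartilage holds a superficial fibrous layer, proliferating progenitors, and chondrocytes that mature, mineralize and border on bone with its marrow. Estrogen is also known to limit the formation of B lymphocytes in bone marrow.

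Each library held 19.3 to 21.6 M (mega) counts in WT E2, 17.4 to 28.8 M in WT Plb, 9.7 to 19.9 M in KO E2 and 16.5 to 25.2 M in KO Plb. Levels are given as CPM, the counts-per-million of a library scaled for its composition, and compare 1 gene between libraries, not different genes. Genes of the fibrous matrix and of cartilage were abundant in every library, such as Col1a1 with means of 30000 CPM in WT E2 and 35000 CPM in KO Plb and Acan with 1170 and 1230 CPM. KO Plb replicate 3 stood apart: its summed granulocyte markers reached 18200 CPM, against 28.5 to 2590 CPM in the other 3 KO Plb libraries and 4 to 1300 CPM in WT E2. Skeletal muscle markers summed to 278 to 1380 CPM in WT E2 and to 16.6 to 7140 CPM in KO Plb, with the top value again in KO Plb replicate 3. In a tissue of mixed cells, fewer cells of a type and less RNA per cell cannot be told apart.

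Esr1, the gene of estrogen receptor alpha, was measured at 10.6, 8.52 and 12 CPM in WT E2 and at 3.65, 5.68, 4.03 and 5.15 CPM in KO Plb. The groups did not overlap, but Esr1 reads were present in every knockout library. WT Plb had 17.5 and 14.2 CPM, above all WT E2 libraries, and KO E2 had 5.66, 5.78 and 4.55 CPM. The log2 fold change of WT E2 over KO Plb was 1.16 ± 0.19 (SE), with an adjusted p of 0.0105 by edgeR's quasi-likelihood test with Benjamini-Hochberg adjustment. Without WT E2 replicate 1 the adjusted p of Esr1 was 0.0519. Counts per gene do not show whether the reads of the knockout came from the removed part of the gene.

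The comparison of hormone plus receptor with neither found 208 genes higher in WT E2 (1.40% of those tested) and 182 genes lower (1.23%) at an adjusted p under 0.05. Among the higher genes, 104 changed at least 2-fold, 44 at least 4-fold and 17 at least 16-fold. The lower genes included more large changes, with 124, 74 and 37 past the same sizes, and the median size was 1.52 on the log2 scale, against 1.01 for the higher genes. All 390 called genes were without overlap between the groups, as were 14% of all tested genes. The median log2 fold change of all tested genes was −0.00. Of all 14832 tested genes, 2304 had an unadjusted p under 0.05 in edgeR, and 49.4% had a positive fold change. Counts of list members below are to be read beside these shares. Leaving out 1 of the 12 libraries at a time gave 80 higher and 28 lower genes without WT E2 replicate 1, 262 higher genes without WT E2 replicate 2 and 257 lower genes without KO E2 replicate 2. A total of 74 of the 208 higher genes and 20 of the 182 lower genes kept their call in all 12 omissions.

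**Figure D1:**
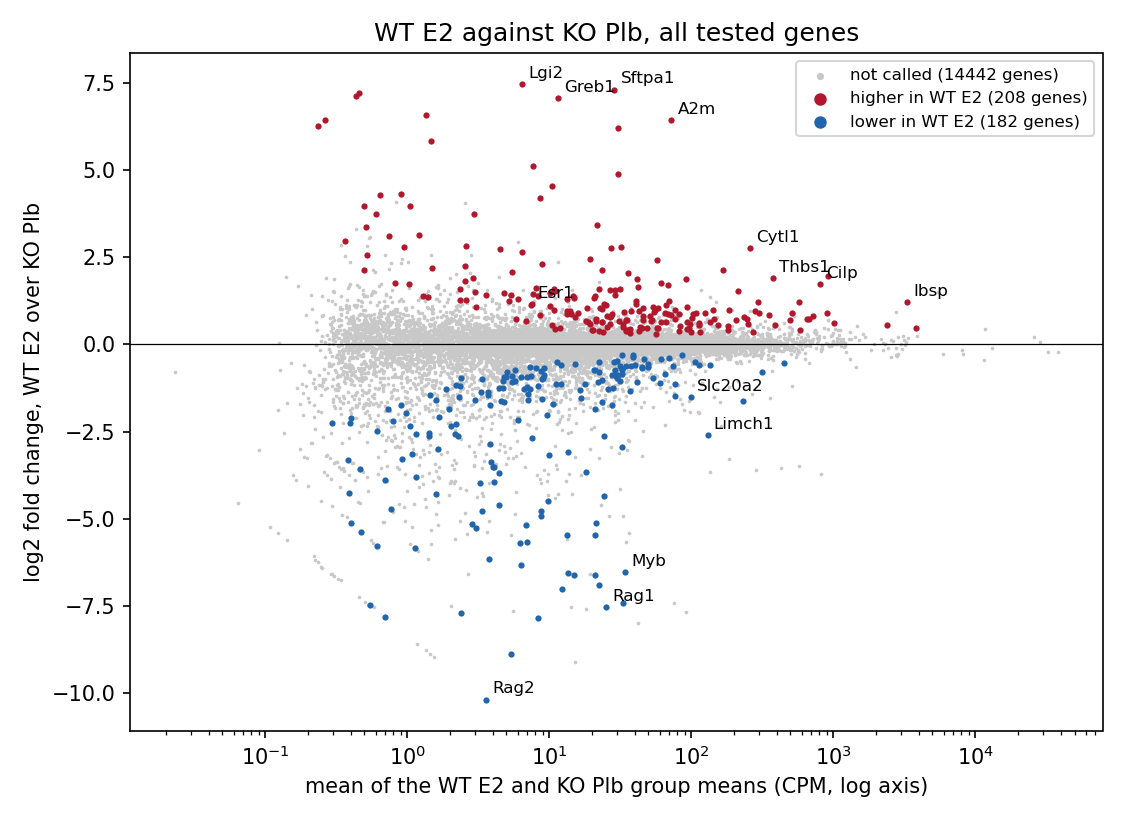
Log2 fold change of WT E2 over KO Plb (vertical axis) against the mean of the group means in CPM (horizontal log axis) for the 14832 tested genes. Red points are the 208 genes called higher in WT E2 and blue points the 182 called lower. The largest changes in each direction lie mostly among genes under 100 CPM.

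In the authors' deposited table for the same 7 libraries, 359 genes (2.44% of 14689 with an adjusted p) were higher in WT E2 and 573 (3.90%) were lower. Of the genes called here, 203 of the 208 higher and 181 of the 182 lower passed the adjusted p of the authors' deposited table in the same direction. The authors' deposited table gives no adjusted p for Sftpa1, A2m and Pi15, whose log2 fold changes there are −5.38, −6.23 and −5.94. The authors' deposited table gives fold changes of KO Plb over WT E2, so these negative values, and its −6.45 ± 0.35 (SE) for Greb1, are higher levels in WT E2.

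WT Plb and KO E2 were placed on a scale for the same genes. On this scale, from 0 at the KO Plb mean to 1 at the WT E2 mean, in log2 CPM, WT Plb lay at a median of 0.172 for the higher genes (quartiles 0.0133 and 0.348) and KO E2 at 0.0951 (−0.00825 and 0.203). Of the 208 higher genes, 23 had WT Plb nearer to WT E2 than to KO Plb, and 5 had KO E2 nearer. For the lower genes, WT Plb lay at a median of 0.659 and KO E2 at 0.421, and WT Plb was nearer to WT E2 for 120 of 182 genes, as was KO E2 for 62. Since the genes were chosen on the end points of this scale, the positions are a description. WT Plb and KO E2 stand in neither arm of the contrast, but their libraries entered the shared estimate of spread by which genes were called, so their difference is a description too. WT Plb was above KO E2 for 59.1% of the higher genes and for 12.1% of the lower genes, against 49.1% of all tested genes, with median log2 differences of 0.05 and −0.47.

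The 12 largest changes in each direction are those of called genes whose groups do not overlap and whose level averaged 1 CPM or more. Most of the 12 increases were in genes at a low level in all other groups. Greb1, a coactivator of the estrogen receptor and a classic estrogen target, had 26.3, 17.4 and 25 CPM in WT E2 and 0.12, 0.18, 0.155 and 0.201 CPM in KO Plb. All 5 libraries of the other groups lay under 0.5 CPM. Its log2 fold change was 7.05 ± 0.31 (SE; adjusted p = 2.25e-06). Lgi2, a secreted protein of the leucine-rich glioma-inactivated family, had 14.9, 9.46 and 13.9 CPM in WT E2 and 0, 0.0451, 0.0775 and 0.121 CPM in KO Plb, a log2 fold change of 7.47 ± 0.64 (adjusted p = 0.000215). Sftpa1, the collectin surfactant protein A, had 56.8, 25.2 and 89.9 CPM in WT E2 and 0.658, 0.586, 0.155 and 0.121 CPM in KO Plb, a log2 fold change of 7.30 ± 0.56 (adjusted p = 0.00017). WT E2 replicate 2 was the lowest of its group for each of these 3 genes and still far above every library of the other groups.

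A pair of secreted inhibitors followed. A2m, alpha-2-macroglobulin, which traps proteases of many classes, had 137.3, 130.3 and 162.5 CPM in WT E2 and 1.86, 2.03, 0.852 and 1.97 CPM in KO Plb (log2 fold change 6.43 ± 0.29; adjusted p = 2.25e-06). WT Plb was between, at 21.7 and 18.5 CPM, while KO E2 had 2.71, 1.89 and 1.12 CPM. Pi15, a secreted peptidase inhibitor, had 71.1, 49.5 and 59.9 CPM in WT E2 and 0.598, 0.406, 1.08 and 1.09 CPM in KO Plb (log2 fold change 6.20 ± 0.35; adjusted p = 1.54e-05). For Pi15, WT Plb had 2.87 and 2.16 CPM and KO E2 had 1.33, 1.26 and 0.511 CPM, so both WT Plb libraries lay above every knockout library.

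Of the other large increases, Gbp8 is given with its family. Trpc6, a calcium-permeable cation channel, had 58.4, 42 and 75.6 CPM in WT E2 and 1.32, 1.53, 2.83 and 2.09 CPM in KO Plb (log2 fold change 4.89 ± 0.31; adjusted p = 3.04e-05). Hcn4, the pacemaker channel, had 2.81, 2.02 and 3.28 CPM in WT E2, while KO Plb held 2 counts over its 4 libraries. The ratio of its summed counts, scaled for depth, was 120 with a 95% interval of 32.8 to 1000 that covers counting error only. Myo5c, an unconventional myosin, had 15.8, 10.3 and 18.7 CPM in WT E2 and 0.299, 0.226, 0.736 and 0.402 CPM in KO Plb. Shank2, a postsynaptic scaffold protein, had 18, 11.7 and 19.3 CPM in WT E2 and 1.14, 0.902, 0.504 and 1.01 CPM in KO Plb. Ripk4, a kinase of epithelial differentiation, stayed at 3.11, 2.12 and 3.48 CPM in WT E2 and under 0.1 CPM in each KO Plb library. The log2 fold changes of Myo5c and Ripk4 were 5.12 ± 0.39 and 5.83 ± 0.53, and the adjusted p of Shank2 was 0.000209. Asb4, a substrate adaptor of ubiquitin ligases, had 7.18, 4.1 and 5.38 CPM in WT E2 and 0, 0.271, 1.12 and 0.161 CPM in KO Plb. Its adjusted p of 0.0497 held in 3 of the 12 omissions and was 0.165 without WT E2 replicate 1, whereas the other 11 of the 12 largest increases kept their call in all omissions.

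**Figure D2:**
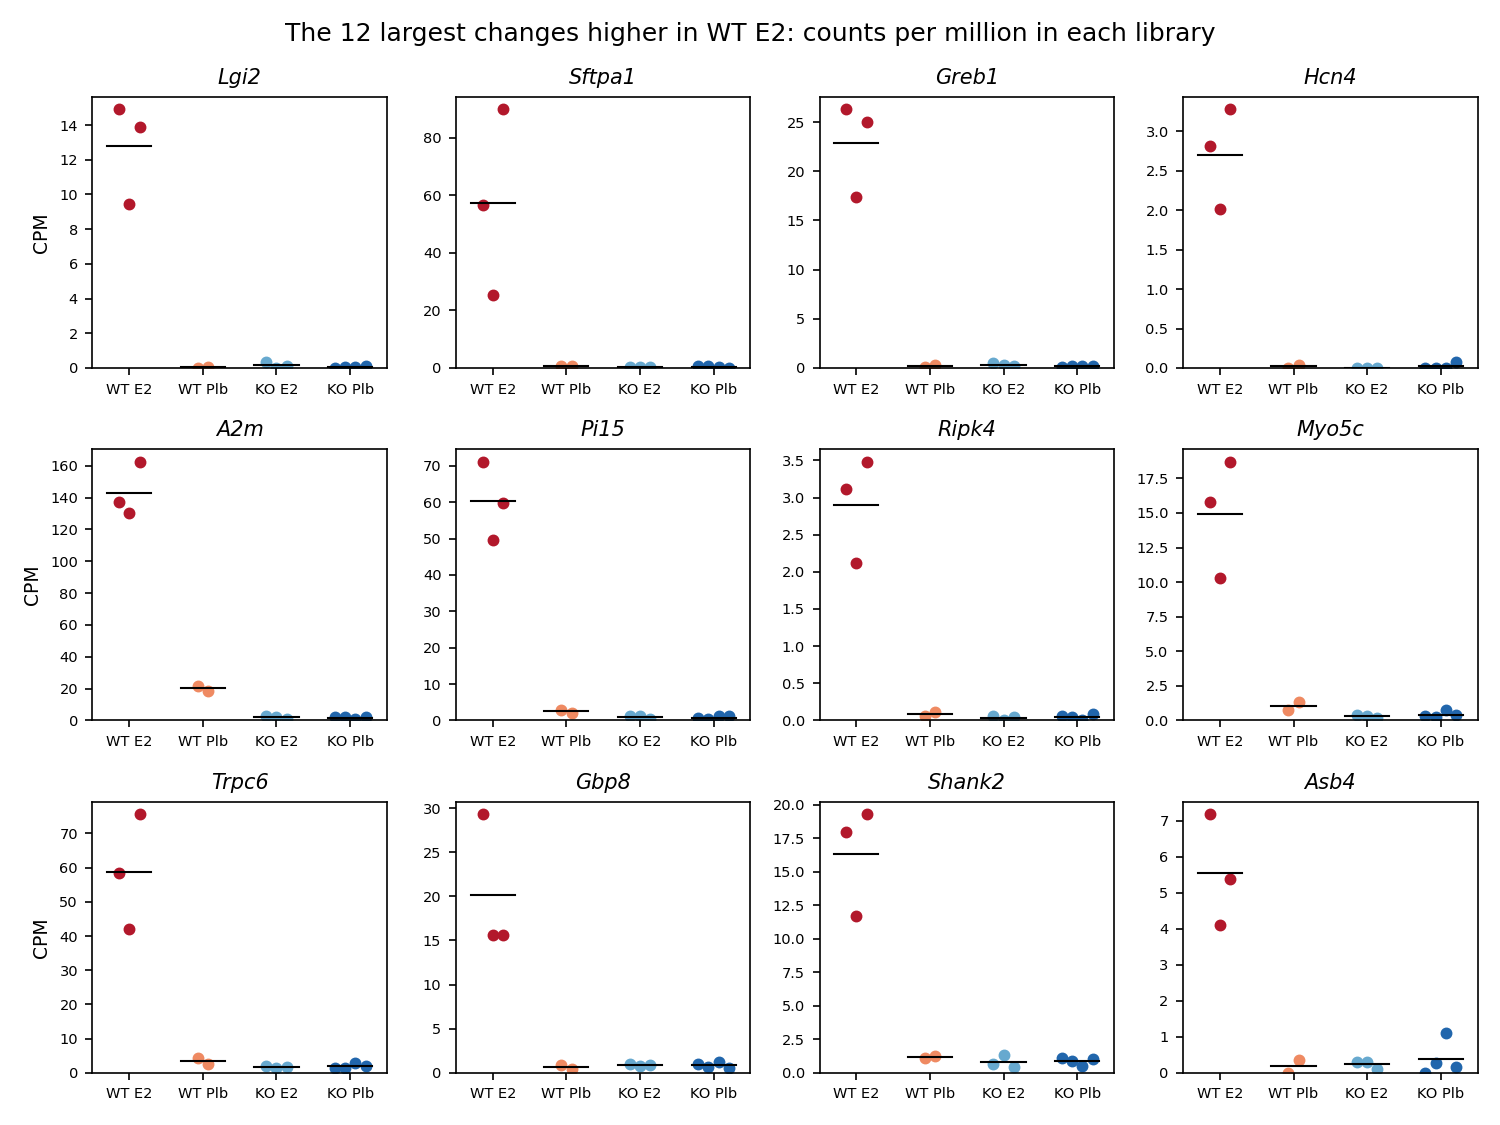
CPM in each library (points) and group mean (bar) for the 12 largest increases, with groups in the order WT E2, WT Plb, KO E2 and KO Plb and a linear axis from 0 in each panel. The 3 WT E2 points lie above all other points in every panel, and for A2m the WT Plb points, at 21.7 and 18.5 CPM, also lie above the knockout points.

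The promoters of the genes with the largest changes are shown because estrogen response elements are the receptor's own binding letters. Each line holds the 250 bases before the transcription start from RefSeq on GRCm38.p6, with the core arm of the element in capitals (GGTCA, or TGACC where it lies on the other strand). The stretches are chr5:52566307-52566556 on the minus strand for Lgi2, chr14:41131538-41131787 on the plus strand for Sftpa1 and chr12:16800887-16801136 on the minus strand for Greb1, whose more upstream start of 2 was taken.
Lgi2: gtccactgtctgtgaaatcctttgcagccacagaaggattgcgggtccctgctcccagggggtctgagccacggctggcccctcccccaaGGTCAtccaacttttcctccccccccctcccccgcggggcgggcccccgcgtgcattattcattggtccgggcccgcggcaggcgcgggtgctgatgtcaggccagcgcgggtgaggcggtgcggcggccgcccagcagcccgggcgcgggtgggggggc
Sftpa1: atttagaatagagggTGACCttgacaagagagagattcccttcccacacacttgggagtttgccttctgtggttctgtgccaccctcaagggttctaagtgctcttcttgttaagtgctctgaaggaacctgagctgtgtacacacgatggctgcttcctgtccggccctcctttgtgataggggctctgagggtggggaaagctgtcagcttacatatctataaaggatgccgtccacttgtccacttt
Greb1: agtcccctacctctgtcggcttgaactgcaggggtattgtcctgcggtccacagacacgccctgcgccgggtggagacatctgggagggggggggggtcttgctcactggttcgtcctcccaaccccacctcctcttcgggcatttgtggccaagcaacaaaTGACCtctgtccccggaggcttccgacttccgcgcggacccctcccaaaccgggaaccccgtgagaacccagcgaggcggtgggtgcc

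The same stretches for the 3 largest decreases are chr2:101624462-101624711 on the plus strand for Rag2, chr16:16863986-16864235 on the minus strand for Igll1 and chr19:41029025-41029274 on the plus strand for Dntt.
Rag2: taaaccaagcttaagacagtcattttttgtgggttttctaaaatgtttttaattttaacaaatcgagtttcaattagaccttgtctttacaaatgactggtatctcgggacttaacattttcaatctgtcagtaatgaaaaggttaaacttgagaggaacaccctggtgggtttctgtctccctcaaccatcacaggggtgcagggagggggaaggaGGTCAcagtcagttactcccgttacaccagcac
Igll1: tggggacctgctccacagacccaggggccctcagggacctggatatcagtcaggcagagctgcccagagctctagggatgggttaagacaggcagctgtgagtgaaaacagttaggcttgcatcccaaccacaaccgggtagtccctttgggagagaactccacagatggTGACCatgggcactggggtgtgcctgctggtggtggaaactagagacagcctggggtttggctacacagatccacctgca
Dntt: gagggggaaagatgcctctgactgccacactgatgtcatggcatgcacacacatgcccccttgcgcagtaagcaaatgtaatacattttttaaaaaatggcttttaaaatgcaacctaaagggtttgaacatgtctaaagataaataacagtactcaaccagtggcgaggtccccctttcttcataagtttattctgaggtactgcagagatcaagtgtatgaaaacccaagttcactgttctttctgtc

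Of these 6 stretches, Dntt's holds no arm and each of the others holds 1. An arm was present in 67 of the 141 higher genes with a promoter entry (47.5%) and in 52 of the 124 lower genes with one (41.9%), against 37.6% of the 10480 tested genes with one and 35.2% of all 32851 promoter windows. The full palindrome, GGTCA and TGACC separated by 3 bases, was found in 0 of the 141, 0 of the 124 and 0 of the 10480 tested genes, and in 21 of all windows. The AP-1 motif TGANTCA, searched on both strands, was present in 2.84% of the higher and 4.84% of the lower genes, against 5.81% of the tested genes. An arm is part of every full palindrome, and a match in these letters is not a binding site.

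Among 20 tested genes known to respond to estrogen in other tissues, 3 rose and 1 fell, and the median log2 fold change was 0.02. One of the 3 is Esr1, the gene targeted in the knockout, which was not higher in WT E2 than in WT Plb. Besides Greb1, Pgr, the progesterone receptor, rose: it had 1.46, 0.847 and 1.08 CPM in WT E2 and 0.12, 0.0902, 0.116 and 0 CPM in KO Plb (log2 fold change 3.73 ± 0.61; adjusted p = 0.0126, and 0.0662 without WT E2 replicate 1). Cxcl12, a chemokine that holds blood precursors in marrow, fell, with 123, 70.4 and 148.4 CPM in WT E2 and 438.6, 265.3, 421.9 and 266.5 CPM in KO Plb. The log2 fold change of Cxcl12 was −1.61 ± 0.37 (adjusted p = 0.0462), and its call was kept in 2 of the 12 omissions. Other well-known targets did not pass: Ctsd had means of 753 CPM in WT E2 and 680 CPM in KO Plb, and Myc had 42.5 and 46.1 CPM. Of 17 coregulators of nuclear receptors, none passed at the threshold in edgeR and 2 had an unadjusted p under 0.05, with Ncor1 at 154.1, 171.8 and 162.1 CPM in WT E2 and 189.6, 176, 162.5 and 177.7 CPM in KO Plb. Among the 16 tested sex steroid receptors and enzymes of steroid metabolism, Esr1 and Pgr alone were called.

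Of 22 tested genes of cartilage matrix and chondrocytes, 3 rose and 0 fell, with 16 positive and 6 negative fold changes. Cilp, cartilage intermediate layer protein, had 1418, 846.5 and 1465 CPM in WT E2 and 567.5, 317.3, 320.5 and 306.2 CPM in KO Plb (log2 fold change 1.72 ± 0.27; adjusted p = 0.00893). Chad, chondroadherin, a leucine-rich protein of the territorial matrix, had 1434, 583.1 and 2364 CPM in WT E2 and 581, 383.5, 298.9 and 246.9 CPM in KO Plb. WT E2 replicate 2 and KO Plb replicate 1 were nearly level for Chad, and its call was kept in 4 of the 12 omissions. Frzb, a secreted Wnt antagonist of joint cartilage, rose with a log2 fold change of 1.05 ± 0.22 (adjusted p = 0.0312) and was kept in 4 omissions too. The median of the list was 0.99, but 0.02 without WT E2 replicate 3, so that library decides the median. Col2a1, the main collagen of hyaline cartilage, had means of 8100 CPM in WT E2 and 2830 CPM in KO Plb with an adjusted p of 0.142. Among the 28 genes of the fibrous matrix and superficial zone, only Lox, the enzyme that cross-links collagen, passed. It had 495.4, 445.1 and 451.9 CPM in WT E2 and 320.3, 355.2, 274.7 and 324.8 CPM in KO Plb (log2 fold change 0.54 ± 0.11; adjusted p = 0.0312), and was kept in 5 omissions.

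Of 18 genes of hypertrophy and mineralization, 5 rose (Ibsp, Alpl, Pth1r, Mgp and Mef2c) and 1 fell. The omissions gave 0 to 5 higher genes in this list, with 0 without WT E2 replicate 1. Ibsp, bone sialoprotein, a nucleator of mineral, had 4376, 3416 and 6169 CPM in WT E2 and 2194, 2486, 1631 and 1775 CPM in KO Plb (log2 fold change 1.20 ± 0.20; adjusted p = 0.0151). Alpl, the alkaline phosphatase that frees phosphate for mineral, and Pth1r, the receptor of parathyroid hormone-related protein, rose by log2 fold changes of 0.61 ± 0.12 and 0.72 ± 0.14. Slc20a2, a phosphate importer, was the one that fell. It had 58.7, 47.3 and 48.9 CPM in WT E2 and 154.8, 152.6, 125.9 and 153.6 CPM in KO Plb, a log2 fold change of −1.51 ± 0.12 (adjusted p = 0.000205). WT Plb was at 118.4 and 114 CPM and KO E2 at 190.5, 145.5 and 147.3 CPM, so the wild-type placebo libraries lay close to the knockouts. The call of Slc20a2 was kept in all 12 omissions, that of Ibsp in 11 and those of Alpl and Pth1r in 8 each.

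Of 15 osteoblast and osteocyte genes, 5 rose (Ibsp, Alpl, Sost, Fgf23 and Ifitm5) and 0 fell. The omissions gave 1 to 6 higher genes in this list, with 1 without WT E2 replicate 1. Sost, the osteocyte's secreted Wnt antagonist sclerostin, had 361.9, 162.1 and 296.4 CPM in WT E2 and 58.9, 62.4, 82.8 and 46.7 CPM in KO Plb (log2 fold change 2.12 ± 0.31; adjusted p = 0.00673). WT Plb lay between, at 149.4 and 95.9 CPM, and KO E2 had 68.2, 89.8 and 44.5 CPM. Fgf23, the phosphate-regulating hormone of osteocytes, was under 1 CPM in every library, with 0.552, 0.424 and 0.973 CPM in WT E2 and 0.0598, 0.0902, 0.116 and 0.0402 CPM in KO Plb (log2 fold change 2.96 ± 0.48; adjusted p = 0.0112). Of the 15 fold changes 13 were positive, against 49.4% of all tested genes. An unadjusted p under 0.05 in edgeR was found for 7, against 2304 of all 14832 tested genes. The mean log2 CPM of the list was 7.89 to 8.46 in WT E2 and 7.57 to 7.86 in KO Plb. Among members that did not pass, Dmp1 had means of 599 CPM in WT E2 and 562 CPM in KO Plb, and Mepe 185 and 169 CPM. Osteoclast genes showed no call among 12 in edgeR (2 had an unadjusted p under 0.05), with Acp5 at 3476, 2750 and 3756 CPM in WT E2 and 2300, 3307, 3430 and 3044 CPM in KO Plb.

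Signalling genes of the Wnt pathway rose in 5 of 28 ligands, receptors and antagonists, and none fell. Wnt4 had 62.4, 42.8 and 68.4 CPM in WT E2 and 22.2, 26.7, 23.6 and 25.1 CPM in KO Plb (log2 fold change 1.24 ± 0.14; adjusted p = 0.0013). Lrp4, a receptor that binds sclerostin, had 402.3, 299.9 and 412.2 CPM in WT E2 and 222.5, 212, 150.7 and 182.7 CPM in KO Plb (log2 fold change 0.95 ± 0.14; adjusted p = 0.00673). Sost and Frzb, above, and the receptor Fzd8 (log2 fold change 0.39 ± 0.07; kept in 7 omissions) made up the rest. None of 15 Wnt target genes passed in edgeR, although 5 had an unadjusted p under 0.05. In TGF-beta and BMP signalling, 2 of 34 rose. Tgfbr3, the co-receptor betaglycan, had a log2 fold change of 0.64 ± 0.08 (adjusted p = 0.00289), and Ltbp1, which holds latent TGF-beta in the matrix, 0.51 ± 0.12 (adjusted p = 0.0451; kept in 5 omissions). Ihh, a hedgehog ligand, had means of 13 CPM in WT E2 and 6.3 CPM in KO Plb with an adjusted p of 0.162. In the insulin-like growth factor axis, Socs2, an inhibitor of growth hormone signalling, rose (0.65 ± 0.11). Pappa, a protease that frees the growth factor from its binding proteins, fell (−1.28 ± 0.25, kept in 6 omissions). Of the 17 tested genes of this axis, 12 had an unadjusted p under 0.05 in edgeR, against 2304 of all 14832 tested genes. Of the 17 fold changes, 12 were positive and 5 negative. No gene of the Notch list passed in edgeR, where 5 of 15 had an unadjusted p under 0.05. In the list of fibroblast growth factors and receptors, Fgf23 was the only call among 16.

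Thbs1, thrombospondin 1, a matrix protein that activates latent TGF-beta and binds integrins, was the only call among 17 thrombospondins and integrins. It had 648.8, 551.4 and 586.9 CPM in WT E2 and 130.1, 155.5, 209.5 and 142.9 CPM in KO Plb, with WT Plb at 174.7 and 135.3 CPM and KO E2 at 165.3, 151.6 and 138.7 CPM. The log2 fold change was 1.90 ± 0.16 (adjusted p = 0.000205). Of 29 matrix proteases and inhibitors, 3 rose and 1 fell. Besides A2m and Pi15, Adamts5, the main aggrecan-cleaving protease of mouse cartilage, had 107.6, 93.6 and 107.3 CPM in WT E2 and 62.5, 44.2, 52.3 and 47.1 CPM in KO Plb (log2 fold change 1.00 ± 0.14; adjusted p = 0.00458). Adam12, a membrane-bound metalloprotease, fell, with 126.6, 104.5 and 93.6 CPM in WT E2 and 159.7, 174.6, 148.2 and 167.5 CPM in KO Plb (kept in 8 omissions). Limch1, an activator of nonmuscle myosin chosen after its values were seen, had 49.2, 21.7 and 39.4 CPM in WT E2 and 250.3, 215.5, 216.5 and 212.6 CPM in KO Plb, a log2 fold change of −2.60 ± 0.24 (adjusted p = 0.00031). Cytl1, a cytokine-like protein of chondrocytes, was chosen the same way and had 542.4, 165.9 and 641.4 CPM in WT E2 and 89.1, 66.7, 59.3 and 49.8 CPM in KO Plb (log2 fold change 2.76 ± 0.39; adjusted p = 0.00524).

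**Figure D3:**
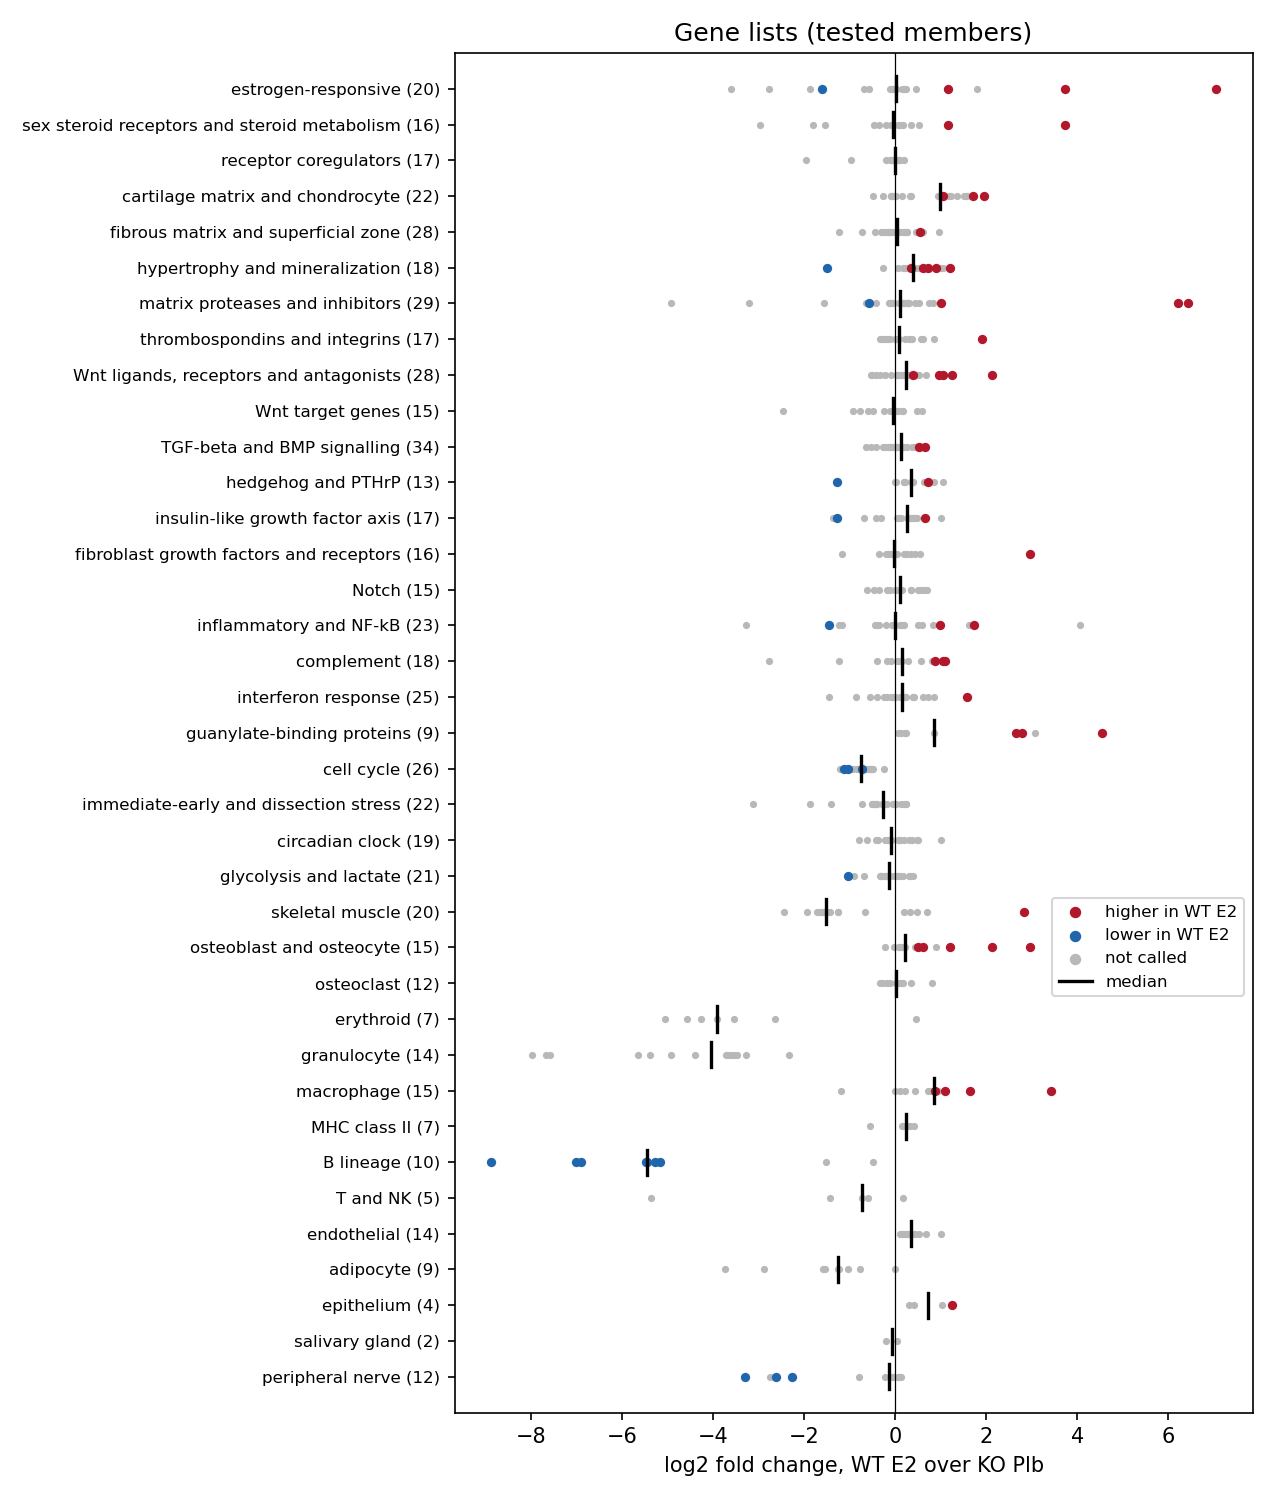
Log2 fold change of WT E2 over KO Plb for every tested member of the 37 gene lists, with the number of tested members in parentheses. Red and blue points are members called higher and lower in WT E2, grey points were not called and black bars are list medians; the B lineage list has its median at −5.46, against −0.00 for all tested genes.

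Macrophage genes rose in part. Of 15 tested, 4 were called higher and 0 lower, and the median was 0.86. Mgl2, a C-type lectin of alternatively activated macrophages, had 43.9, 18.2 and 57.5 CPM in WT E2 and 3.65, 1.71, 7.32 and 2.05 CPM in KO Plb (log2 fold change 3.43 ± 0.50; adjusted p = 0.00634). Cx3cr1, the fractalkine receptor, had 66.6, 36.8 and 89.6 CPM in WT E2 and 20.2, 22.8, 21 and 18.4 CPM in KO Plb (log2 fold change 1.64 ± 0.24; adjusted p = 0.00664). C1qb and C1qc, chains of the first complement component, rose by 1.08 ± 0.22 and 0.88 ± 0.20 on the log2 scale, kept in 6 and 2 omissions. The general markers Cd68 and Csf1r did not pass, with means of 138 and 371 CPM in WT E2 and 139 and 323 CPM in KO Plb. Csf1, the growth factor of macrophages and osteoclasts, rose (log2 fold change 0.97 ± 0.14; adjusted p = 0.00525), with 265.1, 180.6 and 288.5 CPM in WT E2 and 120.9, 138.3, 124.5 and 114.4 CPM in KO Plb. Siglec1, the sialic acid receptor of resident macrophages chosen after its values were seen, had 43.5, 29.6 and 69.2 CPM in WT E2 and 7.36, 8.34, 5.38 and 6.92 CPM in KO Plb (log2 fold change 2.76 ± 0.25; adjusted p = 0.000305). The mean log2 CPM of the 15 tested macrophage markers was 5.42 to 6.05 in WT E2 and 4.80 to 5.35 in KO Plb, without overlap. The members called higher are part of this mean, and its part in these genes' changes was not tested. The summed level of all 16 markers overlapped, at 1420 to 1920 CPM in WT E2 and 1210 to 2930 CPM in KO Plb.

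In innate defence, the guanylate-binding proteins, interferon-induced GTPases that attack pathogen vacuoles, rose in 3 of 9 tested, and all 9 fold changes were positive. Gbp8 had 29.3, 15.6 and 15.6 CPM in WT E2 and 0.958, 0.631, 1.28 and 0.563 CPM in KO Plb (log2 fold change 4.55 ± 0.36; adjusted p = 0.000176). Gbp4 had 64.2, 36.2 and 68.3 CPM in WT E2 and 7.96, 6.68, 10.7 and 7.36 CPM in KO Plb, and Gbp6 rose by 2.64 ± 0.35 on the log2 scale. The members are similar in sequence, and reads can be split between them in ways the counting tool, which is not given in the sources used here, decides. Gbp2 and Gbp7 had means of 24.7 and 20 CPM in WT E2 and 21.2 and 18.4 CPM in KO Plb and did not pass. Of 25 other interferon response genes, only Bst2, the tetherin that holds virions at the membrane, was called (log2 fold change 1.58 ± 0.35; adjusted p = 0.0434; kept in 4 omissions). Among 23 inflammatory genes, Csf1 and the chemokine Ccl7 rose and Ptx3, a soluble pattern recognition protein, fell. Ptx3 had 2.16, 1.65 and 2.15 CPM in WT E2 and 5.8, 4.65, 6.82 and 4.46 CPM in KO Plb (log2 fold change −1.45 ± 0.20; adjusted p = 0.00458). In the complement list, C3ar1, the receptor of the C3a fragment, rose (1.04 ± 0.19; kept in 8 omissions) beside C1qb and C1qc.

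The 12 largest decreases included genes known from B lymphocyte precursors. Rag1 and Rag2 encode the recombinase that assembles antigen receptor genes. Rag2 had 0 counts in all 3 WT E2 libraries and 5.86, 10.7, 5.77 and 6.6 CPM in KO Plb, which is at least 146-fold lower in WT E2 when a floor of 3 counts over the group is used. Rag1 had 0.1, 0.0471 and 0.666 CPM in WT E2 and 75.5, 62.7, 18.6 and 45 CPM in KO Plb (log2 fold change −7.54 ± 1.42; adjusted p = 0.023). Igll1, a part of the surrogate light chain of the pre-B cell receptor, had 1 count in WT E2 and 3.11, 6.81, 20.6 and 12.3 CPM in KO Plb. The ratio of KO Plb over WT E2 for Igll1 was 706, with a counting interval of 126 to 27900. Dntt, the polymerase that adds bases at antigen receptor joints, had 0, 0 and 0.205 CPM in WT E2 and 10.1, 3.97, 30.1 and 21.7 CPM in KO Plb. Jakmip1, a microtubule-binding protein, also had 1 count in WT E2, against 5.75, 7.22, 2.67 and 3.38 CPM in KO Plb.

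Other B cell genes and transcription factors were lower in WT E2 too. Vpreb3, a chaperone of the pre-B cell receptor, had 0.151, 0.0471 and 0.359 CPM in WT E2 and 29.4, 35.7, 12.2 and 19.7 CPM in KO Plb (log2 fold change −7.01 ± 1.14; adjusted p = 0.0117). Spib, a transcription factor of B cells and plasmacytoid dendritic cells, had 0.0502, 0.0471 and 1.08 CPM in WT E2 and 101.5, 106.6, 11 and 46.1 CPM in KO Plb. KO Plb replicate 3 was the lowest of its group for Rag1, Spib and Vpreb3, and WT E2 replicate 3 the highest of its group for each. For Igll1 and Dntt, KO Plb replicate 3 was instead the highest of its group. Myb, a factor of blood progenitors, had 0.301, 0.188 and 1.74 CPM in WT E2 and 92.5, 82.8, 50.7 and 46.8 CPM in KO Plb. Cecr2, a chromatin remodelling protein, had 0.251, 0.141 and 0.871 CPM in WT E2 and 65, 65.9, 10.3 and 24.8 CPM in KO Plb. Siglecg, an inhibitory B cell lectin, and Fcrla, an intracellular Fc receptor-like protein of B cells, fell by log2 fold changes of −6.60 ± 1.29 and −6.55 ± 1.33. Il7r, the receptor chain for the cytokine that B precursors need in mice, was chosen after its values were seen and had 0.753, 0.565 and 0.359 CPM in WT E2 and 20.8, 27.2, 8.87 and 11.7 CPM in KO Plb (log2 fold change −4.92 ± 0.71; adjusted p = 0.00585).

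Outside the contrast, both WT Plb libraries were low for these genes, while the KO E2 libraries were spread. Rag1 was at 0 and 0.0733 CPM in WT Plb, and at 29.3, 0 and 7.31 CPM in KO E2. For Vpreb3, WT Plb had 0 and 0.11 CPM and KO E2 had 16.4, 0.421 and 4.75 CPM. For Rag1 and Vpreb3, KO E2 replicate 2 thus lay near the wild-type libraries and KO E2 replicate 1 within the range of KO Plb. KO E2 replicate 2 was also the shallowest library, at 9.7 M counts. Its granulocyte markers summed to 19.5 CPM, against 7500 and 729 CPM in KO E2 replicates 1 and 3. KO E2 replicate 3 lay between the wild-type and KO Plb libraries. Of the 10 B lineage markers, 7 were called lower in WT E2 and all 10 had a negative fold change. The omissions gave 0 to 9 lower genes in this list, with 0 without WT E2 replicate 1. Ebf1, a member that stromal cells also express, had means of 13.4 CPM in WT E2 and 18.7 CPM in KO Plb. The summed level of the markers was 18.5 to 27.7 CPM in WT E2, 17 to 20.6 in WT Plb, 21.7 to 173 in KO E2 and 123 to 275 in KO Plb. In a WT E2 library 0 to 2 of the 10 markers had no count, and in each KO Plb library all 10 were counted. Of the 12 largest decreases, none kept its call in all 12 omissions: adjusted p-values without WT E2 replicate 1 were 0.0751 for Rag2, 0.116 for Rag1 and 0.0776 for Vpreb3, and the log2 fold changes stayed at −6.06 or lower in each omission. Il7r kept its call in all of them.

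**Figure D4:**
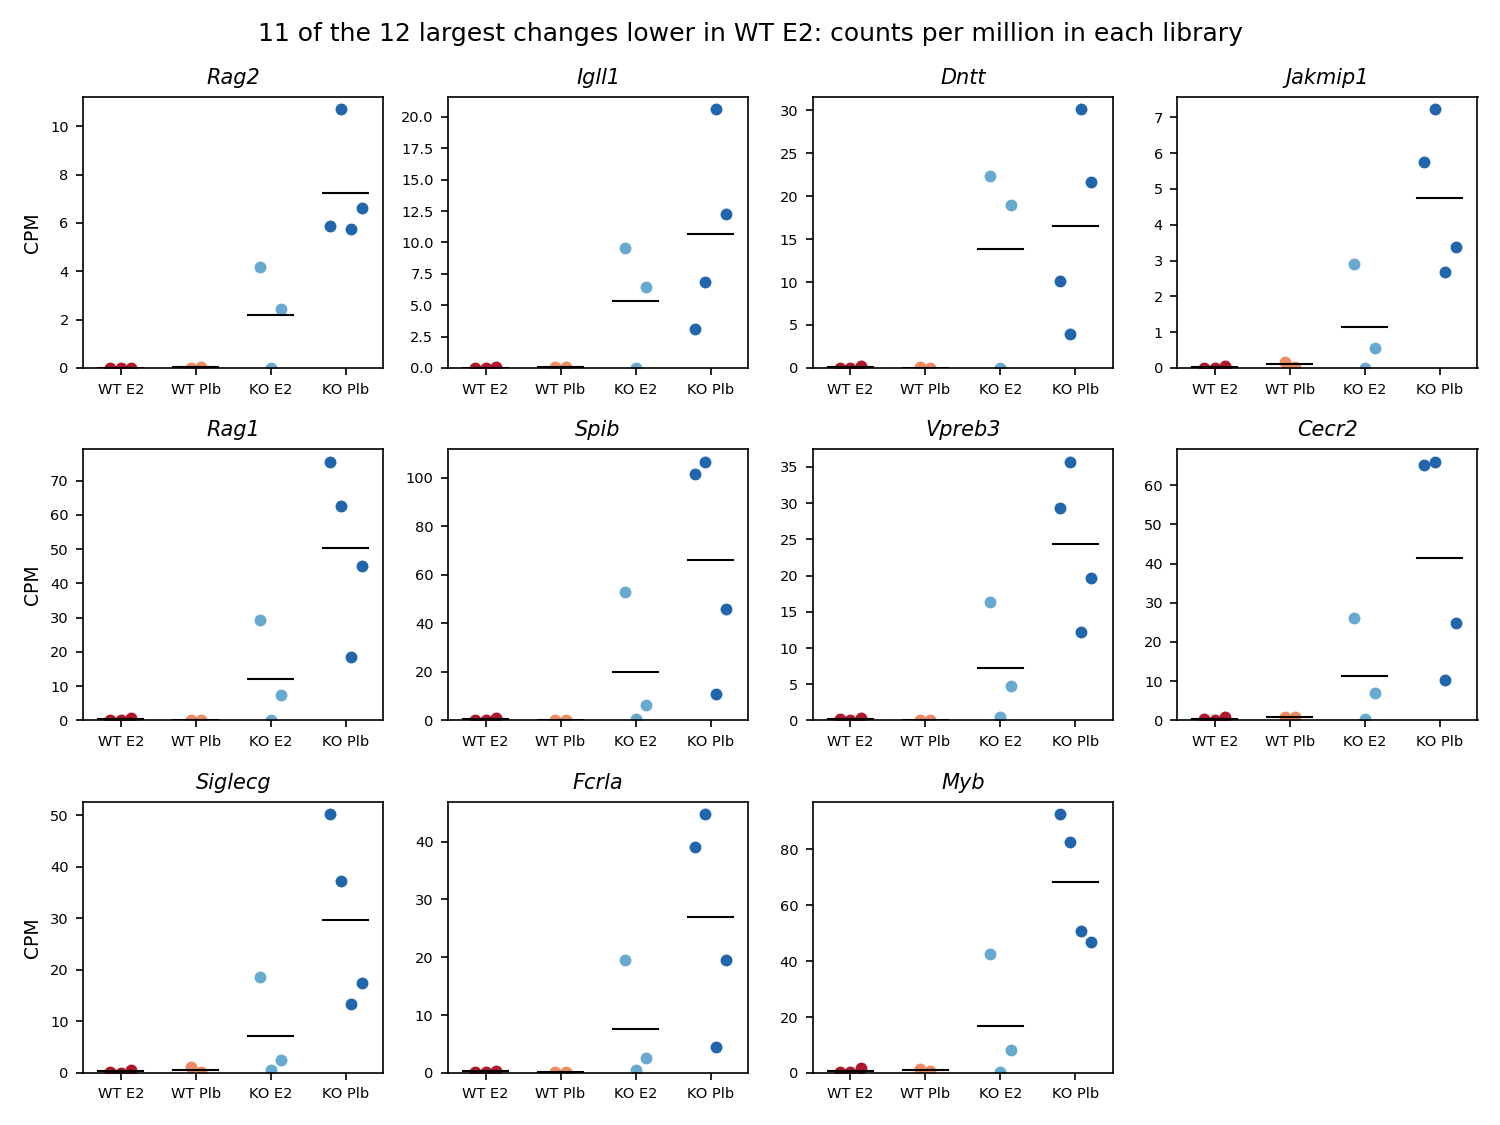
CPM in each library (points) and group mean (bar) for 11 of the 12 largest decreases, groups as in the plot of the increases, with a linear axis from 0 in each panel. All 4 KO Plb points lie above all WT E2 points; KO E2 replicate 2, the middle point of its group, lies near 0 with both wild-type groups, as for Rag1 with 29.3, 0 and 7.31 CPM in KO E2.

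Cell cycle genes were lower in WT E2 without exception in sign: all 26 fold changes were negative, with a median of −0.75, and 3 passed. Top2a, the topoisomerase of dividing cells, had 43.3, 40.3 and 60.6 CPM in WT E2 and 92.1, 92.4, 148.2 and 89.1 CPM in KO Plb (log2 fold change −1.13 ± 0.25; adjusted p = 0.0417). Ccna2, cyclin A2, and Foxm1, a transcription factor of mitotic genes, fell by log2 fold changes of −1.05 ± 0.24 and −0.74 ± 0.16. Mki67, the proliferation marker, had means of 63.4 CPM in WT E2 and 141 CPM in KO Plb with an adjusted p of 0.0503. Ezh2, a histone methyltransferase of dividing cells chosen after its values were seen, had 22.1, 19.2 and 19.8 CPM in WT E2 and 40.4, 43.6, 39.9 and 35.6 CPM in KO Plb (log2 fold change −0.97 ± 0.15; adjusted p = 0.00893). None of the calls of Top2a, Ccna2 and Foxm1 held when the 7 libraries were fitted alone, and the omissions gave 0 to 7 lower genes in the list, the 7 without KO E2 replicate 2. These 3 calls were kept in 2, 1 and 4 omissions, and adjusted p-values without WT E2 replicate 1 were 0.172, 0.193 and 0.167. The mean log2 CPM of the cell cycle list was 3.49 to 4.08 in WT E2 and 4.22 to 4.97 in KO Plb, and the one of the B lineage list was −1.21 to −0.171 and 3.30 to 4.29. KO E2 replicate 2, low in B lineage markers, was also the lowest knockout library for the cell cycle list, at 3.6. WT Plb, with B lineage means of −0.53 and −0.65, had cell cycle means of 4.15 and 4.06, near KO E2 replicates 1 and 3 at 4.12 and 4.17, and the part of B lineage cells in these changes was not tested.

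The mean of the B lineage list differs between WT E2 and KO Plb without overlap, so it cannot be told apart from the group within these 7 libraries. With this mean as a covariate in the fit of all 12 libraries, 2 genes were called, Greb1 and A2m, both higher, and 0 lower, with 944 genes at an unadjusted p under 0.05. With the mean of the granulocyte markers as a covariate, 189 genes were higher and 114 lower. Without the pair of libraries KO Plb replicate 3 and WT E2 replicate 3, 128 genes were higher and 119 lower, of which 106 and 79 were among the original calls. The B lineage covariate and this omission were chosen after seeing the data.

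Markers of other cells gave few calls. Granulocyte markers all had negative fold changes with a median of −4.06, yet none of 14 passed in edgeR (6 had an unadjusted p under 0.05). S100a9, a calcium-binding protein of neutrophils, had 1.96, 0.518 and 345.9 CPM in WT E2 and 25.3, 3.25, 5360 and 712.7 CPM in KO Plb, so the groups overlapped. The median of the granulocyte list was −10.28 without WT E2 replicate 3 and −1.72 without KO Plb replicate 3. The skeletal muscle list had a median of −1.51, and 0.14 without KO Plb replicate 3. Tnnc1, the troponin C of slow and cardiac muscle, was the 1 call of the list and rose, with 4.47, 2.54 and 6.76 CPM in WT E2 and 0.898, 0.631, 0.62 and 0.442 CPM in KO Plb (log2 fold change 2.83 ± 0.43; adjusted p = 0.00839). Among 12 peripheral nerve genes, Sox10, Scn7a and Gfra3 fell at levels under 4 CPM, kept in 5, 3 and 0 omissions, while the myelin gene Mbp had means of 24.9 CPM in WT E2 and 26.1 CPM in KO Plb. Of 4 tested epithelial genes, Epcam, a cell adhesion molecule, rose (log2 fold change 1.25 ± 0.27; kept in 4 omissions). No marker was called in edgeR among 14 endothelial, 9 adipocyte, 7 erythroid, 7 MHC class II, 5 T and NK cell and 2 salivary gland genes. In that order, 4, 3, 3, 0, 2 and 0 of them had an unadjusted p under 0.05. All 14 endothelial fold changes were positive (median 0.35), and all 9 adipocyte ones were negative (median −1.25). For the erythroid list 6 of 7 were negative (median −3.91), and for T and NK cells 4 of 5 (median −0.73). For MHC class II 6 of 7 were positive (median 0.23).

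Responses of time of day and of handling were not called. None of 19 circadian clock genes and none of 22 immediate-early genes passed in edgeR, with 1 at an unadjusted p under 0.05 in each list. Nr1d1, the clock repressor Rev-erb alpha, had 430.8, 669.4 and 647.2 CPM in WT E2 and 504.2, 348.3, 300.2 and 486.9 CPM in KO Plb, and the groups overlapped. Klf6, an early response factor, had 144.6, 169.4 and 167.2 CPM in WT E2 and 182.8, 193.1, 189 and 288.1 CPM in KO Plb. Of 21 genes of glycolysis and lactate, Slc16a1, a lactate transporter, fell (log2 fold change −1.03 ± 0.23; adjusted p = 0.0456), a call kept in 1 omission.

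**Figure D5:**
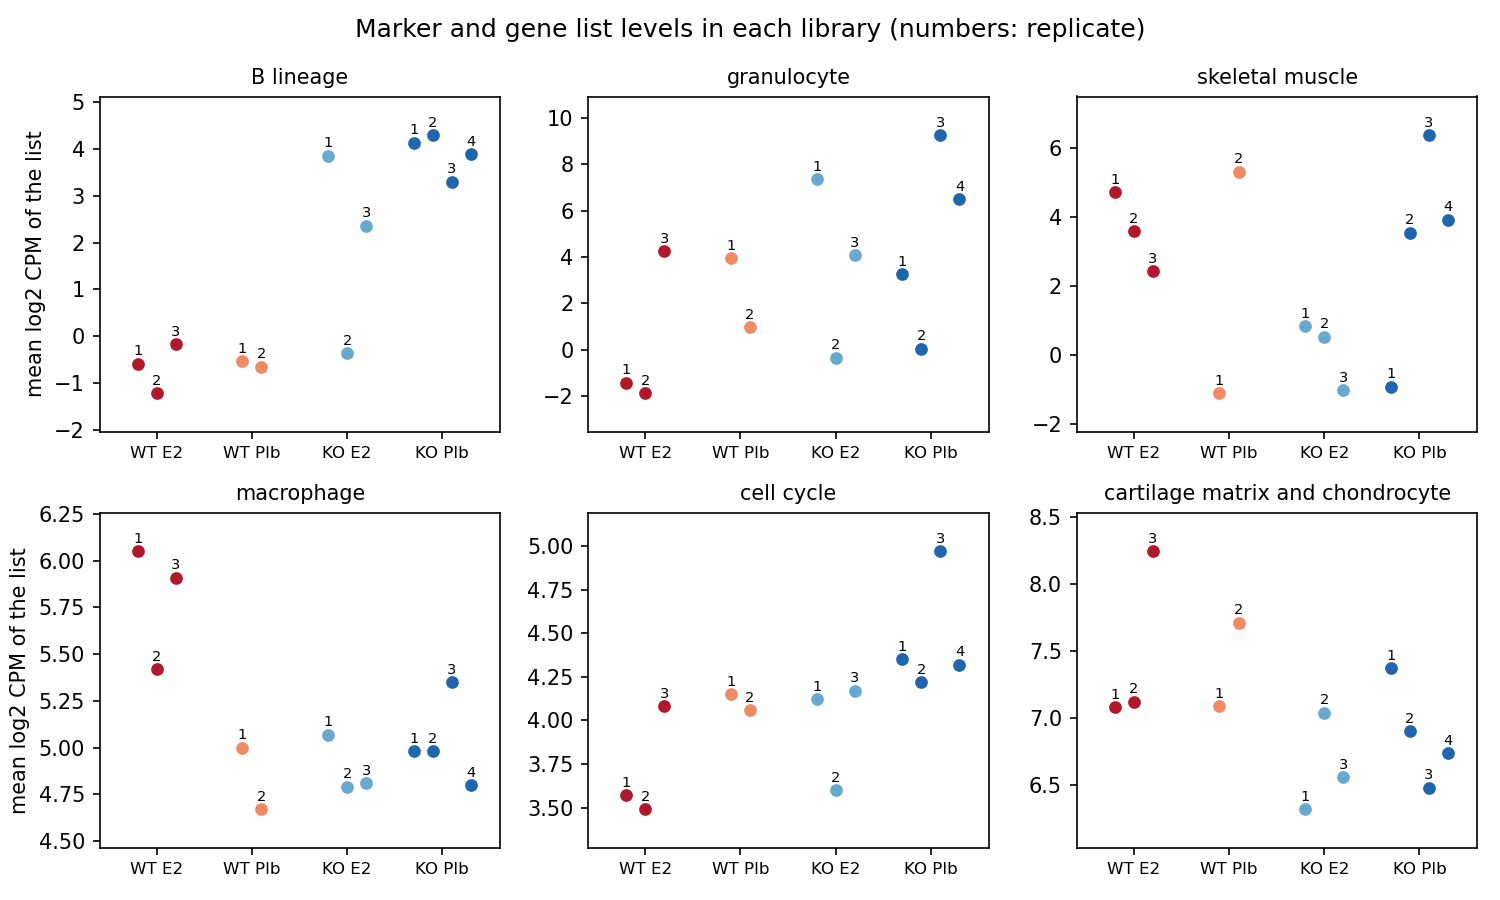
Mean log2 CPM of 6 gene lists in each library (points, numbered by replicate), groups in the order WT E2, WT Plb, KO E2 and KO Plb. The B lineage panel shows KO Plb at 3.30 to 4.29 and WT E2 at −1.21 to −0.171, with KO E2 replicate 2 at the level of the wild-type libraries; the granulocyte panel shows KO Plb replicate 3 at 9.25.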

How the data were processed

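Polyadenylated RNA of mandibular condylar fibrocartilage was sequenced as 100-base reads. The submitters' processing notes name bcl2fastq 2.17, TopHat and the mm9 build. How genes were counted, with which annotation and strand setting, is not given in the sources used here. Raw counts per gene symbol were deposited by the authors. They also deposited a comparison of the same 7 libraries with log2 fold changes and p-values, in DESeq2's column layout per the file headers.

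Genes passing edgeR's expression filter (minimum count 10) were scaled with edgeR's TMM factors. They were fitted in edgeR 4.0.16 (R 4.3.3) by quasi-likelihood with 1 mean per group over all 12 libraries, which leaves 8 residual degrees of freedom. P-values were adjusted by Benjamini-Hochberg over 14832 genes, with a threshold of 0.05. Each SE was taken from the fold change and its F statistic. List levels are means of log2 CPM over the tested members, with a prior count of 2. The biological coefficient of variation was 25.9%.

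Named genes were Esr1, the 12 largest changes each way with at least 1 CPM and no overlap, and up to 4 called members per list, or 2 as values where none was called. The 37 lists held 668 members, 614 tested. Members and lists were chosen with earlier results of these data known. Alternatives were other scalings, filters, DESeq2 1.42.0, a replicate block, marker covariates and the omission of each library. No 2 replicates agreed within sampling noise. Intervals and floors cover counting error only, since reads carried no molecular identifiers. The values of 2 called genes are not reported here.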

Additional observations from a re-analysis of the deposited data

Results flagged for a closer look

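A check of single libraries ran over 164 groups of 4 values, all in KO Plb, the only group with 4 libraries, and chance marks about 1 in 20 of them. In 10 cases 1 library lay far from the other 3. KO Plb replicate 3 was lowest for A2m at 0.852 CPM, lowest for Slc20a2 at 126 CPM, highest for Top2a at 148 CPM and highest for the MHC class II markers, with a mean log2 CPM of 5.54. KO Plb replicate 1 was highest for Cilp at 568 CPM and for Limch1 at 250 CPM. KO Plb replicate 4 was highest for Hcn4 at 0.0804 CPM, which is the only library of its group with counts of that gene, for Klf6 at 288 CPM and for the immediate-early list at a mean log2 CPM of 6.36. KO Plb replicate 2 was highest for the Notch list at 4.61. The calls of A2m, Slc20a2, Cilp, Limch1 and Hcn4 were kept without each of the 12 libraries in turn, and Klf6 was not called. The call of Hcn4 was lost with the replicate block. That of Cilp was lost in the test against a 1.5-fold change and without KO Plb replicate 3 and WT E2 replicate 3 together.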

How the results depend on the processing

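Against 208 higher and 182 lower genes, an adjusted p of 0.01 left 78 and 20 and one of 0.1 gave 352 and 404. DESeq2 called 391 and 597, of which 39.6% were higher, against 53.3% of the original calls. It shared 206 and 182 with the original calls. A test against a 1.5-fold change gave 46 and 19. The 7 libraries alone gave 129 higher genes and 163 lower, of which 120 and 110 were among the original calls. Calls lost with the 7 libraries included Asb4, Frzb, Chad, Lox, Alpl, Adam12, Ltbp1, Pappa, Ccl7, C1qb, C1qc, Bst2 and Epcam, besides Top2a, Ccna2 and Foxm1. Granulocyte markers as a covariate gave 114 lower genes, 97 of them among the original calls, and muscle and granulocyte markers together gave 114, of which 91 were. Omitting 1 library gave 80 to 262 higher and 28 to 257 lower genes. The B lineage covariate left 2 and 0, and omitting KO Plb replicate 3 and WT E2 replicate 3 together 128 and 119. The share of higher genes among the calls was 44.2% with the 7 libraries, 62.4% and 63.1% with the granulocyte covariates and 70.8% with the fold threshold. Other scalings, filters and the muscle covariate kept both counts within 1.5 times, and no scaling moved the median of all genes by over 0.1.

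Libraries were not paired by replicate number in the main fit. Deviations of WT E2 and KO Plb libraries with the same number correlated at −0.268, 0.329 and 0.126. Those with different numbers correlated at −0.402 to 0.218. Whether libraries with the same number share a batch was not tested. With the replicate block, 74 higher and 78 lower genes were called over 12 libraries, and 40 and 139 over 7 libraries. Calls lost in both of these fits included Esr1, Hcn4, Sost, Lrp4 and Ibsp, and calls kept in both included Greb1, A2m, Thbs1, Slc20a2 and Limch1.

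The log2 fold change of S100a9 turned to 1.64 under the granulocyte covariate (adjusted p = 0.0493 in edgeR) and 1.69 with muscle added (0.046). S100a9 is itself among the averaged granulocyte markers. The covariate thus partly sets its value, and this test cannot show a change of its own. Under the B lineage covariate, log2 fold changes turned positive for Rag1 (0.89), Spib (2.28), Cecr2 (1.32), Siglecg (0.020), Fcrla (1.19), Myb (0.64), Cd79a (0.39), Ikzf3 (0.62), Syk (0.14) and Bcl11a (0.42), none past the threshold. Cd79a is itself among the averaged B lineage markers, so the covariate partly sets its value. Of all called genes, 29 changed sign under the B lineage covariate. The cause of these changes was not tested. Genes under about 1 CPM rest on few counts, which limits their folds.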
